A study of Mus musculus with 14 samples.

Results

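The 39 genes described here encode the defence of a cell against superoxide, peroxides and the peroxidation of its membrane lipids. They comprise the regulator Nrf2 (gene symbol Nfe2l2) and its partner Keap1, NADPH-driven reductases, sulfiredoxin, thioredoxins, peroxiredoxins and glutathione peroxidases. Also included are enzymes of glutathione synthesis, superoxide dismutases and catalase, glutathione transferases, the lipid enzyme Acsl4 and the metallothioneins. The genes were chosen by name, with earlier results of these data known, so their counts beside the shares of all genes are descriptive. Where a gene had several probe sets, the one with the highest mean was used. Of the 39 genes, 36 were measured, among 18193 genes on the array. Prdx1 had only probe sets shared with another gene symbol and was not used, and Prdx5 and Prdx6 were not analysed here.

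The study profiled ribosome-bound mRNA of dopaminergic neurons from the mouse ventral midbrain on Affymetrix arrays, in mice whose dopaminergic neurons lacked transferrin receptor 1 (Tfr1, encoded by Tfrc) and in controls. Tfr1 brings transferrin-bound iron into cells. The Tfr1-null mice carried the deletion in dopaminergic neurons only, while the controls were heterozygous for the Tfr1 allele and thus not wild type. All mice were F2 animals of 129Sv and C57BL/6 and carried RiboTag, a tagged ribosomal protein through which ribosomes of a chosen cell type are pulled out of a tissue lysate. The series has 4 Tfr1-null and 3 control libraries from mice of 3 weeks, an age described as early in the neurodegeneration, and 3 Tfr1-null and 4 control libraries from mice of 10 weeks, described as late. Neither the driver of the deletion nor the deleted exons were given in the sources used. The labels do not say whether the libraries of a group came from separate mice, so p values measure only the spread between these libraries, which may be technical.

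Ferroptosis is a form of cell death in which iron catalyses the peroxidation of membrane lipids. Gpx4 stops it by reducing lipid hydroperoxides with glutathione, Aifm2 (also called FSP1) does so through reduced ubiquinone, and Acsl4 supplies the polyunsaturated phospholipids that are oxidised. Nrf2 is held low by Keap1 and, when released, activates genes such as Nqo1, Srxn1, Gclm and several glutathione transferases. Dopaminergic neurons carry a particular oxidant load, because dopamine forms reactive quinones and its breakdown by monoamine oxidase yields hydrogen peroxide.

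Values are log2 signals, in which a difference of 1 is a 2-fold difference in signal, and a gene was called when limma's adjusted p over all 18193 genes was under 0.05. The medians of the arrays were 6.41 to 6.47 in the younger set and 7.36 to 7.43 in the older, so signals were compared only within an age. The probe set for the 5′ end of Tfrc, which checks the labels, read 6.88 to 7.73 in Tfr1-null neurons against 9.50 to 9.59 in controls at 3 weeks, once 2 libraries were set aside. At 10 weeks it then read 7.79 to 9.29 in Tfr1-null neurons against 9.63 to 10.44 in controls. The libraries set aside were the library labelled Tfr1-null 3 weeks 1, at 9.67, whose source name also says control, and the library labelled control 10 weeks 1, at 8.55. The probe sets for the 3′ end and the middle of Tfrc went the other way, for a cause not tested. In the 12 libraries the 3′ end read 10.99 to 11.25 in Tfr1-null neurons against 9.19 to 9.29 in controls at 3 weeks. At 10 weeks it read 11.45 to 11.63 against 8.56 to 9.84. The libraries set aside, at 9.19 and 11.31, again lay nearer the opposite genotype. Among the redox defence genes, the library labelled Tfr1-null 3 weeks 1 lay nearer the mean of the controls for 26 of 36, against 63.8% of all genes, and the library labelled control 10 weeks 1 nearer the mean of the Tfr1-null libraries for 27 of 36, against 58.4%. Results are therefore given for the 14 libraries as labelled and for the 12 without these. The choice was made on Tfrc, with earlier results of these data known, and favours differences between the groups. A male pattern of sex-linked genes was seen in 1 of 7 libraries at 3 weeks, a control, and in 7 of 7 at 10 weeks. All 13 dopaminergic markers exceeded the 25th percentile of an array in at least 1 library. Their summed linear signal in the 12 libraries was 74095 to 78173 in Tfr1-null neurons against 81823 to 84267 in controls at 3 weeks. At 10 weeks it was 114400 to 135214 in Tfr1-null neurons against 144799 to 152909 in controls. The part of this shift in the differences of the redox genes was not tested.

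Promoters are shown for Nqo1, Gstp1, Gpx7, Gstm5 and Srxn1, 5 of the members whose signal differed by genotype, with Srxn1 as the only one that rose; they were picked after their values had been seen. The sequences are the 250 bases before the start of each gene (RefSeq, GRCm38.p6), written 5′ to 3′ on the strand of the gene, with every match to a searched motif in capitals.
Nqo1, chr8:107403206-107403455, minus strand: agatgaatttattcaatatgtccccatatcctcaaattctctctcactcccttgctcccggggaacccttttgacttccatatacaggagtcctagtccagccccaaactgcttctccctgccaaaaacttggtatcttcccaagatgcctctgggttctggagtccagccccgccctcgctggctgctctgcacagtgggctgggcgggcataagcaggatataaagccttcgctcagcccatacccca
Gstp1, chr19:4037913-4038162, minus strand: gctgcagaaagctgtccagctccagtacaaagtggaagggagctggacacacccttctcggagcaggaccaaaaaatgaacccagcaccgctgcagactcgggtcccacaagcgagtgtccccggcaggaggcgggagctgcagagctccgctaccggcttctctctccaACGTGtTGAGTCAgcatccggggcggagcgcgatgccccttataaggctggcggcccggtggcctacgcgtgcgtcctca
Gpx7, chr4:108406714-108406963, minus strand: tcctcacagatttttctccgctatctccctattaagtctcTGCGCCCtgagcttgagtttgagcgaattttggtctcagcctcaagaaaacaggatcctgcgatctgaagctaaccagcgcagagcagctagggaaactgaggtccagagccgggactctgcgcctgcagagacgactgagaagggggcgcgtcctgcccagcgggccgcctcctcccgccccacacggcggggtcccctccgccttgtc
Gstm5, chr3:107895604-107895853, plus strand: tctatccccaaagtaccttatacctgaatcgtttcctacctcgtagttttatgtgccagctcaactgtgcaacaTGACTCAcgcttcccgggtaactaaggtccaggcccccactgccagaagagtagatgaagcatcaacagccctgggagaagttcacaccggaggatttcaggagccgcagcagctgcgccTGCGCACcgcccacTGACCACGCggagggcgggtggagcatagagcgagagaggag
Srxn1, chr2:152105274-152105523, plus strand: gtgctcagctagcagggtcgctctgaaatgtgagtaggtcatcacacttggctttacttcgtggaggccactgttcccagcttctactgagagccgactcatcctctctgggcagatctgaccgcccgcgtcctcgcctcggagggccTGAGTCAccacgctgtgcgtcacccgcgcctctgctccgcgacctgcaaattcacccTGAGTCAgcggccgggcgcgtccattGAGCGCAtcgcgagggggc
The motifs were searched on both strands. They included the core of the antioxidant response element bound by Nrf2 (TGACNNNGC) and the hypoxia response core (ACGTG). Both forms of the metal response element (TGCACNC and TGCGCNC) were searched as well. The AP-1 and NF-E2 core (TGAGTCA) was added after the sequences had been seen. A match to TGACNNNGC can overlap one to TGAGTCA, as it does in Mt2.

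The Nqo1 window held no match to any of the 5 motifs. The Srxn1 window held TGAGTCA at positions -102 to -96 and -45 to -39 relative to the gene start, and a reverse match to TGCGCNC at -19 to -13. In Gstp1, ACGTG and TGAGTCA lay next to each other between -80 and -68. Gstm5 was the member among the 5 with a match to TGACNNNGC as searched, at -42 to -34. The TGAGTCA of Gstp1 and that of Srxn1 at -45 to -39 were each followed by GC. These letters match TGACNNNGC except for a G in place of its first C, and a search allowing that G was not run. The table held 41 windows for 32 of the 36 measured members, some of which have several gene starts. Of these 41 windows, TGACNNNGC occurred in 7, against 10.2% of all 32851 windows, TGCACNC in 4 against 10.4%, TGCGCNC in 7 against 12.5%, ACGTG in 8 against 16.6% and TGAGTCA in 4 against 4.46%. A match describes letters in the window and does not show that a factor binds there.

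At 3 weeks, in the 12 libraries, Nqo1, Gpx7 and Gstp1 fell in Tfr1-null neurons, 3 of 36 members, and 0 members rose. Over all genes, 1.16% were called lower and 0.682% higher in that comparison. At an unadjusted p under 0.05, 8 members were lower, against 5.36% of all genes, and 0 higher, against 5.27%. With the 14 libraries as labelled limma called 0 of 36 members and 0 genes overall. At an unadjusted p under 0.05 it then found 4 members lower (Nqo1, Gpx7, Gstp1 and Gpx3), against 2.57% of all genes, and 0 higher, against 2.1%. The median difference of the 36 members was -0.12 in the 12 libraries and -0.09 in the 14, against 0.01 for all genes in both. For the 13 dopaminergic markers it was -0.13 in the 12 libraries, with 11 negative and 2 positive, and -0.11 in the 14. A downward shift was thus not particular to the redox genes. In tagged lysates, fewer dopaminergic cells and less mRNA per cell cannot be told apart.

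Nqo1 reduces quinones, including those formed from dopamine, and is a classical Nrf2 target. In Tfr1-null neurons at 3 weeks it read 8.01 in the library labelled Tfr1-null 3 weeks 1 and 6.02, 6.48 and 6.33 in the other 3, against 8.44, 8.32 and 8.27 in controls. All 4 Tfr1-null libraries lay below all controls, and the doubtful library lay close to the control range. In the 12 libraries Nqo1 averaged 6.28 ± 0.24 in Tfr1-null neurons and 8.34 ± 0.09 in controls (SD, n = 3 each). The difference was -2.06 (SE 0.15, limma adjusted p = 7.1e-05), and -1.63 (SE 0.48) with the 14 libraries.

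Gpx7, a peroxidase of the endoplasmic reticulum, read 7.49 in the doubtful library and 5.88, 6.25 and 6.09 in the other Tfr1-null libraries, against 7.08, 7.74 and 7.51 in controls. The 3 Tfr1-null libraries lay below every control, while the doubtful library lay within the control range. The difference in the 12 libraries was -1.37 (SE 0.24, limma adjusted p = 0.012). The call was lost without control 3 weeks 2 or 3 or Tfr1-null 3 weeks 2 or 4, with limma adjusted p of 0.0683, 0.0622, 0.0702 and 0.0528. Gpx3, the secreted plasma peroxidase, differed by -1.11 (SE 0.29, limma adjusted p = 0.097), and Gpx1, the cytosolic enzyme, by -0.22 (SE 0.15); neither was called.

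Gstp1, the pi-class glutathione transferase, read 12.96 in the doubtful library and 12.05, 12.42 and 12.21 in the other Tfr1-null libraries, against 12.97, 13.03 and 13.06 in controls. The groups did not overlap in the 14 libraries, though the doubtful library fell just short of the lowest control. The difference was -0.80 (SE 0.12, limma adjusted p = 0.0045) in the 12 libraries and -0.61 (SE 0.21) in the 14. Of the 8 glutathione transferases measured, 7 had a negative difference in the 12 libraries and 1 was called. The widest among those not called was Gstm6, at 7.57 in the doubtful library and 4.94, 5.40 and 5.59 in the others, against 8.28, 7.97 and 6.36 in controls. The 3 control libraries of Gstm6 spanned more than the other members described here, and the difference of -2.23 had an SE of 0.57 (limma adjusted p = 0.097).

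The regulators and the ferroptosis enzymes were not called at 3 weeks. Nfe2l2 read 5.91, 4.97, 5.45 and 5.72 in Tfr1-null neurons, against 5.76, 5.39 and 5.30 in controls. The groups overlapped, with a difference of -0.11 (SE 0.30) in the 12 libraries. Keap1 read 11.21, 11.04, 11.09 and 11.08 in Tfr1-null neurons, against 11.30, 11.29 and 11.26 in controls. All Tfr1-null libraries of Keap1 lay below all controls, by a difference of -0.22 in the 12 libraries (SE 0.11, limma adjusted p = 0.55). Gpx4 read 12.37, 12.36, 12.50 and 12.38 in Tfr1-null neurons, against 12.37, 12.43 and 12.46 in controls, with overlapping groups and a difference of -0.003 (SE 0.10) in the 12 libraries.

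Gclc, the catalytic subunit of the rate-limiting enzyme of glutathione synthesis, read 9.73, 9.61, 9.59 and 9.68 in Tfr1-null neurons, against 9.86, 9.81 and 9.75 in controls. The groups did not overlap, but the difference of -0.18 (SE 0.13) was not called, and the other probe set of Gclc differed by 0.06. Aifm2 read 8.58, 8.80, 8.69 and 8.90 in Tfr1-null neurons, against 8.59, 8.45 and 8.33 in controls. Without the doubtful library all Tfr1-null values of Aifm2 were above all controls, with a difference of 0.34 (SE 0.18, limma adjusted p = 0.61). Acsl4 read 10.99, 11.72, 10.89 and 11.12 in Tfr1-null neurons, against 10.99, 10.91 and 11.02 in controls, with overlapping groups and a difference of 0.27 (SE 0.21) in the 12. Prdx3, the mitochondrial peroxiredoxin, read 10.95, 10.88, 11.07 and 10.98 in Tfr1-null neurons, against 11.05, 11.09 and 11.18 in controls, with overlapping groups and a difference of -0.13 (SE 0.09) in the 12. Mt3, the brain metallothionein that binds zinc and copper, read 11.19 in the doubtful library and 10.20, 10.53 and 10.40 in the other Tfr1-null libraries, against 11.04, 11.18 and 11.18 in controls. The difference of Mt3, at -0.75 (SE 0.17), just missed the threshold (limma adjusted p = 0.051), while Mt1 and Mt2 differed by 0.10 and 0.11.

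Counted by groups that do not overlap, 5 members lay lower in all Tfr1-null libraries with the 14 as labelled, against 4.52% of all genes, and 0 lay higher, against 3.64%. With the 12 libraries 12 members lay lower, against 11.6% of all genes, and 2 (Aifm2 and Srxn1) higher, against 13.3%.

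**Figure D1:**
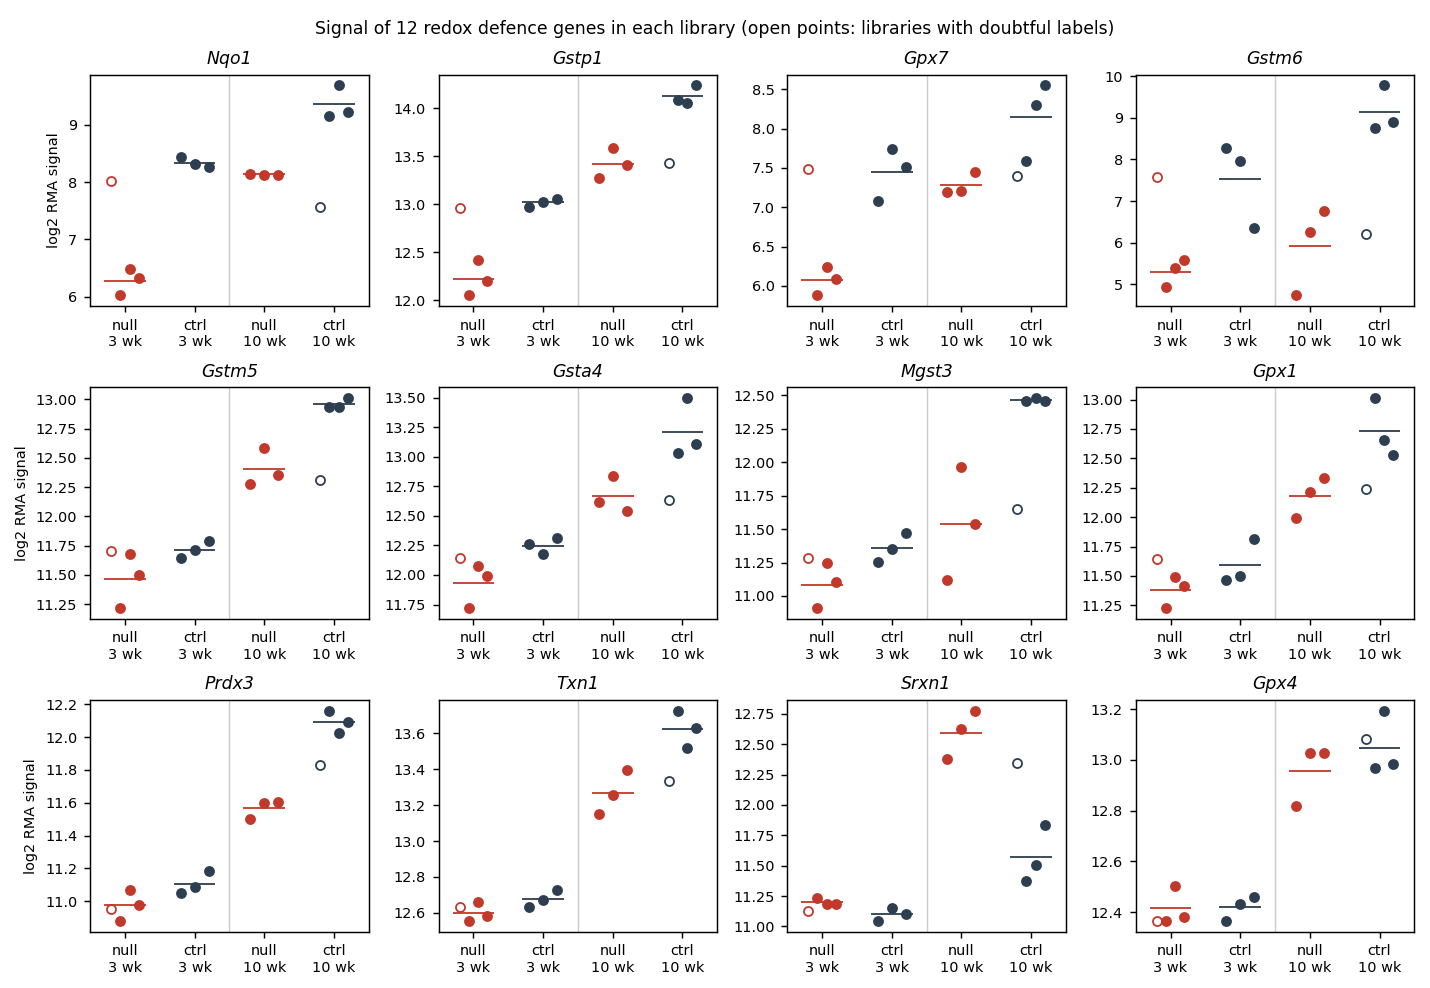
Log2 signal (vertical axes, each panel with its own range) of 12 redox defence genes in every library, by genotype and age, Tfr1-null to the left of control. Points are libraries, open points the 2 libraries with doubtful labels, and lines the means of the filled points; Nqo1 at 3 weeks lies at 6.02 to 6.48 in the filled Tfr1-null points and at 8.27 to 8.44 in controls.

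At 10 weeks, in the 12 libraries, 10 of 36 members fell in Tfr1-null neurons and 1, Srxn1, rose. These calls use a spread per gene shared with the 3-week libraries. With the 10-week libraries fitted alone, 1 of the 11, Nqo1, was called. Over all genes 6.34% were called lower and 4.73% higher. The members that fell were Gstm6, Gstp1, Gstm5, Gsta4 and Mgst3 among the glutathione transferases, Gpx1 and Gpx7 among the peroxidases, and Nqo1, Prdx3 and Txn1. With the 14 libraries as labelled, 1 member fell (Prdx3) and 0 rose, against 0.616% of all genes lower and 0.594% higher. At an unadjusted p under 0.05, 8 members were then lower, against 10.8% of all genes, and 2 (Srxn1 and Txn2) higher, against 9.05%. The median difference of the members was -0.13 in the 12 libraries and -0.11 in the 14, against -0.01 and -0.02 for all genes. For the 13 dopaminergic markers it was -0.31 in the 12 libraries, with 10 negative and 3 positive, and -0.21 in the 14. All 11 members called lay, in the library labelled control 10 weeks 1, nearer the mean of the Tfr1-null libraries, against 58.4% of all genes. The share among all called genes was not computed, so this count shows nothing particular to the members.

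Srxn1 encodes sulfiredoxin, which restores overoxidised peroxiredoxins and is an Nrf2 target. It read 12.38, 12.62 and 12.78 in Tfr1-null neurons at 10 weeks, against 12.34 in the library labelled control 10 weeks 1 and 11.38, 11.50 and 11.83 in the other controls. All Tfr1-null libraries lay above all controls, even with the doubtful library, which sat just under them. In the 12 libraries Srxn1 averaged 12.59 ± 0.20 in Tfr1-null neurons and 11.57 ± 0.24 in controls (SD, n = 3 each). The difference was 1.02 (SE 0.13, limma adjusted p = 0.00092), and its 3 other probe sets differed by 0.88, 0.97 and 1.20. Over all 14 libraries it was 0.83 (SE 0.18), with a limma adjusted p of 0.050 that just missed the threshold. At 3 weeks Srxn1 read 11.13, 11.24, 11.19 and 11.19 in Tfr1-null neurons, against 11.04, 11.15 and 11.10 in controls, and was not called.

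Nqo1, a reductase and another Nrf2 target among the members called, went the opposite way at 10 weeks. It read 8.14, 8.13 and 8.13 in Tfr1-null neurons, against 7.56 in the doubtful control and 9.15, 9.69 and 9.23 in the other controls. The Tfr1-null libraries lay together below these 3 controls and above the doubtful library, so the groups overlapped as labelled. The difference was -1.23 in the 12 libraries (SE 0.15, limma adjusted p = 0.00081) and -0.78 in the 14 (SE 0.48, limma adjusted p = 0.40). The remaining reductases, Txnrd1, Txnrd2, Gsr and Aifm2, differed by -0.03 to 0.13 in the 12 libraries and none was called. Their other probe sets spread more widely, at -0.79, -0.80 and -0.11 for Txnrd2, 0.56 for Gsr, -0.18 and -0.16 for Txnrd1, and -0.44 and 0.41 for Aifm2. Aifm2 read 8.66, 8.73 and 8.91 in Tfr1-null neurons, against 9.40 in the doubtful control and 8.91, 8.86 and 8.14 in the others, and the groups overlapped.

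Peroxiredoxins reduce peroxides with electrons from thioredoxin. Prdx3, the mitochondrial form, read 11.50, 11.60 and 11.61 in Tfr1-null neurons, against 11.83 in the doubtful control and 12.16, 12.02 and 12.09 in the others. All Tfr1-null libraries lay below all controls in either set of libraries. The difference was -0.52 in the 12 libraries (SE 0.09, limma adjusted p = 0.0042) and -0.46 in the 14 (SE 0.09, limma adjusted p = 0.040). With the 14 libraries this call was lost on leaving out any 1 library other than control 10 weeks 1, with limma adjusted p between 0.0503 and 0.105. Prdx2, a cytosolic form, differed by -0.28 (SE 0.10, limma adjusted p = 0.097) and was not called. Prdx4, of the endoplasmic reticulum, read 10.34, 11.75 and 10.32 in Tfr1-null neurons, against 11.99 in the doubtful control and 10.18, 10.32 and 10.15 in the others. Tfr1-null 10 weeks 2 and the doubtful control stood far above the rest, and the difference was 0.59 in the 12 libraries (SE 0.30) and 0.14 in the 14, not called in either.

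Thioredoxins pass electrons to the peroxiredoxins. Txn1, the cytosolic form, read 13.15, 13.26 and 13.39 in Tfr1-null neurons, against 13.34 in the doubtful control and 13.73, 13.52 and 13.63 in the others. Without the doubtful control the groups did not overlap, and Txn1 fell by 0.36 on the log2 scale (SE 0.09, limma adjusted p = 0.034). Its other probe set differed by -0.30. Txn2, the mitochondrial form, read 11.58, 12.37 and 11.60 in Tfr1-null neurons, against 11.55 in the doubtful control and 11.27, 11.38 and 11.55 in the others. All Tfr1-null values of Txn2 were above all controls, though by a narrow margin for 2 libraries, and the difference of 0.45 (SE 0.18) was not called. The other probe sets of Txn2 differed by -0.05 and -0.55 in the 12 libraries, so its direction was not settled.

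Glutathione transferases, which couple glutathione to electrophiles such as the products of lipid peroxidation, held 5 of the 10 members that fell, out of 8 measured. Gstm6 read 4.74, 6.25 and 6.76 in Tfr1-null neurons, against 6.22 in the doubtful control and 8.74, 9.78 and 8.91 in the others. The 3 Tfr1-null libraries lay below these 3 controls and differed among themselves by more than those did. The value of 4.74 lay under the 25th percentile of its array (5.50), so the size of the difference may be limited by background signal. The difference was -3.23 in the 12 libraries (SE 0.57, limma adjusted p = 0.0057). Gstp1 read 13.28, 13.58 and 13.41 in Tfr1-null neurons, against 13.43 in the doubtful control and 14.09, 14.05 and 14.24 in the others, a difference of -0.71 (SE 0.12, limma adjusted p = 0.0040). Without the doubtful control the groups were well apart.

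Mgst3, a microsomal enzyme that also reduces lipid hydroperoxides, read 11.12, 11.96 and 11.54 in Tfr1-null neurons, against 11.65 in the doubtful control and 12.46, 12.48 and 12.46 in the others. The difference was -0.93 (SE 0.18, limma adjusted p = 0.0089), with -0.28 at its other probe set. Gstm5, a mu-class enzyme, read 12.28, 12.59 and 12.35 in Tfr1-null neurons, against 12.31 in the doubtful control and 12.94, 12.93 and 13.01 in the others. For both genes the doubtful control stood apart from its group and within the Tfr1-null range. Gstm5 differed by -0.56 (SE 0.13, limma adjusted p = 0.018). Gsta4, which detoxifies reactive aldehydes from lipid peroxidation, differed by -0.55 (SE 0.14, limma adjusted p = 0.033), at 12.61, 12.83 and 12.54 in Tfr1-null neurons against 12.64 in the doubtful control and 13.03, 13.50 and 13.11 in the others.

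Mgst1 ran against this group, at 8.37, 7.24 and 7.66 in Tfr1-null neurons against 7.73 in the doubtful control and 5.67, 7.62 and 6.63 in the others. The groups overlapped, and the difference of 1.12 (SE 0.45, limma adjusted p = 0.14) was not called; its other probe set, dim in every library, differed by -0.06. Gstm1 and Gsto1 differed by 0.21 and -0.46 and were not called either. The mu-class genes have close copies, so their probe sets may share transcripts. Astrocytes also express several of these enzymes. At 10 weeks their 13 markers summed to 22902 to 32455 in Tfr1-null neurons against 21544 to 28873 in controls of the 12 libraries. None of these markers was called at either age. At 10 weeks 10 of the 13 had a positive difference and 3 a negative one, with a median of 0.28 against -0.01 for all genes. The part of astrocytes in the differences of these enzymes was not tested.

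Among the peroxidases, Gpx1 read 11.99, 12.22 and 12.33 in Tfr1-null neurons, against 12.24 in the doubtful control and 13.01, 12.66 and 12.53 in the others. Gpx7 read 7.20, 7.20 and 7.45 in Tfr1-null neurons, against 7.40 in the doubtful control and 7.59, 8.29 and 8.55 in the others. Both groups of 3 Tfr1-null libraries lay below the 3 remaining controls. Gpx1 differed by -0.55 (SE 0.15, limma adjusted p = 0.042) and Gpx7 by -0.86 (SE 0.24, limma adjusted p = 0.041). Gpx4, the enzyme that guards against ferroptosis, read 12.82, 13.03 and 13.03 in Tfr1-null neurons, against 13.08 in the doubtful control and 12.97, 13.19 and 12.98 in the others. The groups overlapped with either set of libraries, and the difference of -0.09 (SE 0.10) was not called.

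The remaining roles had 0 called members at 10 weeks. Nfe2l2 read 6.83, 7.83 and 7.21 in Tfr1-null neurons, against 7.79 in the doubtful control and 7.26, 8.03 and 7.24 in the others, with overlapping groups. Keap1 read 11.33, 11.59 and 11.18 in Tfr1-null neurons, against 11.42 in the doubtful control and 11.37, 11.41 and 11.55 in the others, which overlapped too. The differences in the 12 libraries were -0.22 (SE 0.30) for Nfe2l2 and -0.08 (SE 0.11) for Keap1. Gclc read 10.57, 10.34 and 10.61 in Tfr1-null neurons, against 10.44 in the doubtful control and 9.94, 10.35 and 10.48 in the others, a difference of 0.25 (SE 0.13). The other probe set of Gclc differed by 0.04 in the 12 libraries. Acsl4 read 12.11, 12.53 and 11.98 in Tfr1-null neurons, against 12.10 in the doubtful control and 11.76, 11.88 and 12.22 in the others, a difference of 0.25 (SE 0.21). Gclm, the modifier subunit of the enzyme that Gclc belongs to, and Gss, which completes glutathione, differed by -0.42 and -0.20. The superoxide dismutases Sod1, Sod2 and Sod3 and catalase (Cat) differed by -0.16 to 0.09. Other probe sets of these genes ranged from -0.50 (Sod2) to 0.55 (Sod1), with 0.34 for Cat, so their directions were not settled. The metallothioneins Mt1, Mt2 and Mt3 differed by 0.19, 0.35 and -0.44.

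At 10 weeks 5 of the 11 calls in the 12 libraries did not hold on leaving out 1 library. Gpx1 was lost without control 3 weeks 1 or 2, Tfr1-null 3 weeks 2, 3 or 4, Tfr1-null 10 weeks 1, 2 or 3, or control 10 weeks 2 or 3 (limma adjusted p 0.0530 to 0.123). Gpx7 was lost without control 3 weeks 3, Tfr1-null 3 weeks 2, 3 or 4, any Tfr1-null library at 10 weeks, or control 10 weeks 3 or 4 (0.0553 to 0.105). Txn1 was lost without any control at 3 weeks, Tfr1-null 3 weeks 2 or 4, Tfr1-null 10 weeks 1 or 2, or control 10 weeks 2 or 4 (0.0507 to 0.0966). Gsta4 was lost without any control at 3 weeks, Tfr1-null 3 weeks 4, Tfr1-null 10 weeks 1 or 3, or control 10 weeks 3 (0.0507 to 0.0942), and Gstm5 without Tfr1-null 10 weeks 1 or 3 (0.0584 and 0.0529). Srxn1, Nqo1, Prdx3, Gstm6, Gstp1 and Mgst3 stayed called without any of the 12 libraries in turn. With the 10-week libraries fitted alone, Nqo1 was the member still called.

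Counted by groups that do not overlap, 13 members lay lower in all Tfr1-null libraries of the 12, against 12.7% of all genes, and 3 (Srxn1, Txn2 and Prdx4) higher, against 9.87%. With the 14 libraries 1 member lay lower, against 5.58%, and 2 higher, against 4.48%.

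**Figure D2:**
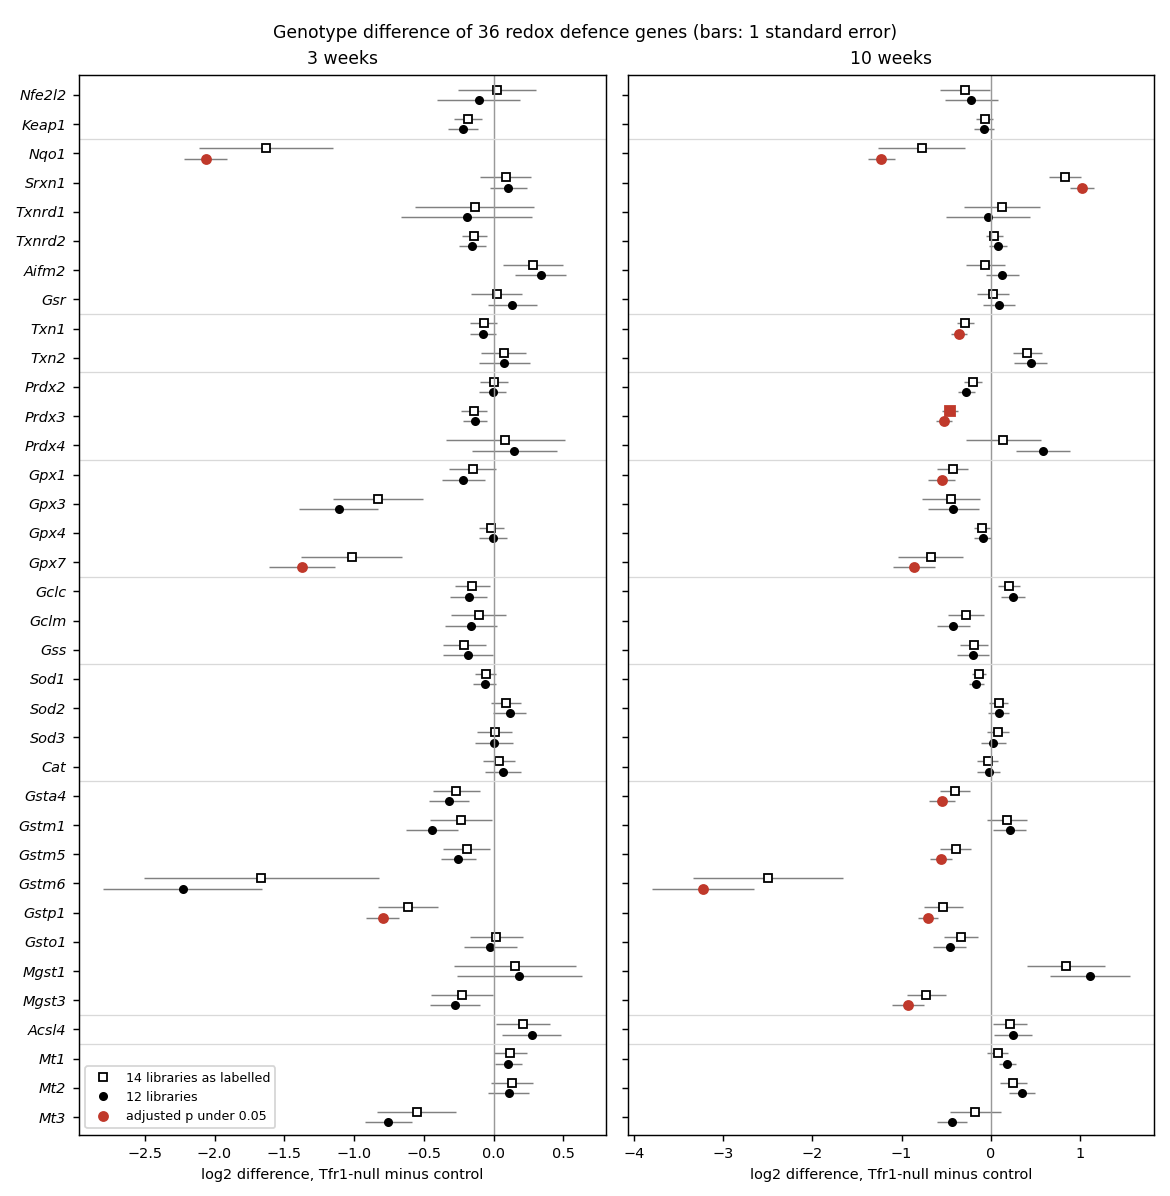
Difference in log2 signal, Tfr1-null minus control (horizontal axes), for the 36 members in order of role, at 3 weeks on the left and 10 weeks on the right. Squares are the fit to 14 libraries, circles the fit to 12, red marks an adjusted p under 0.05 and bars are 1 standard error; at 10 weeks 11 circles are red, with Srxn1 at 1.02 the only red point to the right of zero.

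Whether the genotype difference itself changed with age was tested as the 10-week difference minus the 3-week difference. It was called for 0 of 36 members with either set of libraries, against 0.286% of all genes with the 12 and 0 genes with the 14. At an unadjusted p under 0.05, 4 members were higher in the 12 libraries, against 5.34% of all genes, and 2 lower, against 6.86%. In the 14 libraries 1 was higher, against 3.22%, and 1 lower, against 4.25%. Srxn1 came nearest, at 0.92 in the 12 libraries (SE 0.19, limma adjusted p = 0.088) and 0.74 in the 14 (SE 0.26, limma adjusted p = 0.59). Nqo1, lower at both ages in the 12 libraries, differed between them by 0.84 (SE 0.22, limma adjusted p = 0.17), and Prdx3 by -0.39 (SE 0.12, limma adjusted p = 0.23). In the same libraries the age difference was -0.11 (SE 0.42) for Nfe2l2, 0.14 (SE 0.15) for Keap1 and -0.09 (SE 0.14) for Gpx4. It was 0.43 (SE 0.19) for Gclc, -0.02 (SE 0.30) for Acsl4 and -0.21 (SE 0.26) for Aifm2. The other probe set of Gclc did not show this change, with genotype differences of 0.06 at 3 weeks and 0.04 at 10 weeks. Calls made at 10 weeks and not at 3 weeks, such as those of Srxn1 and Prdx3, are therefore not shown to differ between the ages. A male pattern was seen in 1 of 7 libraries at 3 weeks and 7 of 7 at 10 weeks. Age and sex therefore cannot be told apart in this comparison.

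A list of 101 further genes of oxidant defence, ferroptosis and heme or thiol metabolism, of which 95 were measured, was read beside the members. It too was written with earlier results of these data known, so its counts are descriptive. At 3 weeks, in the 12 libraries, 3 of 95 rose and 4 fell, against 0.682% of all genes higher and 1.16% lower. At 10 weeks 9 rose and 15 fell, against 4.73% of all genes higher and 6.34% lower. In the libraries as labelled 0 were called at 3 weeks, and at 10 weeks Glrx2, a mitochondrial glutaredoxin, fell by 0.94 on the log2 scale while 0 rose. The members' counts in the 12 libraries, 0 of 36 higher and 3 lower at 3 weeks and 1 higher and 10 lower at 10 weeks, stand beside these.

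Among the wider genes that rose at both ages were Hmox1, which degrades heme and releases its iron, Chac1, which breaks down glutathione, and Sesn2, a stress-induced sestrin. Sesn2 read 8.92 in the doubtful library and 10.20, 10.03 and 10.03 in the other Tfr1-null libraries at 3 weeks, against 9.08, 9.03 and 8.91 in controls. At 10 weeks it read 11.76, 11.29 and 10.93 in Tfr1-null neurons, against 11.24 in the doubtful control and 9.57, 9.52 and 9.64 in the others. At both ages the groups of the 12 libraries were far apart, and the differences were 1.08 (SE 0.17, limma adjusted p = 0.0066) and 1.75 (SE 0.17, limma adjusted p = 0.00019). Hmox1 differed by 1.86 and 2.14 and Chac1 by 1.73 and 1.63. Maff, a small Maf protein of the kind that pairs with Nrf2 on DNA, rose at 10 weeks by 1.19 (SE 0.23, limma adjusted p = 0.0097).

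Those that fell at both ages were the glutathione transferases Gstt2 and Gstm4 and the methionine sulfoxide reductases Msrb1 and Msrb2, which repair oxidised methionine. Gstt2 read 6.55 in the doubtful library and 5.43, 4.93 and 5.32 in the other Tfr1-null libraries at 3 weeks, against 6.32 to 6.71 in controls. At 10 weeks it read 5.91, 6.15 and 5.87 in Tfr1-null neurons, against 6.52 in the doubtful control and 8.57, 8.31 and 8.46 in the others. The 2 doubtful libraries lay with the opposite genotype at 3 weeks and between the groups, nearer the Tfr1-null libraries, at 10 weeks. Gstt2 differed by -1.28 (SE 0.15, limma adjusted p = 0.0012) and -2.47 (SE 0.15, limma adjusted p = 1e-05). Msrb1, a selenoprotein, differed by -1.51 and -1.38, Msrb2 by -1.18 and -1.17, and Gstm4 by -0.82 and -1.43.

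**Figure D3:**
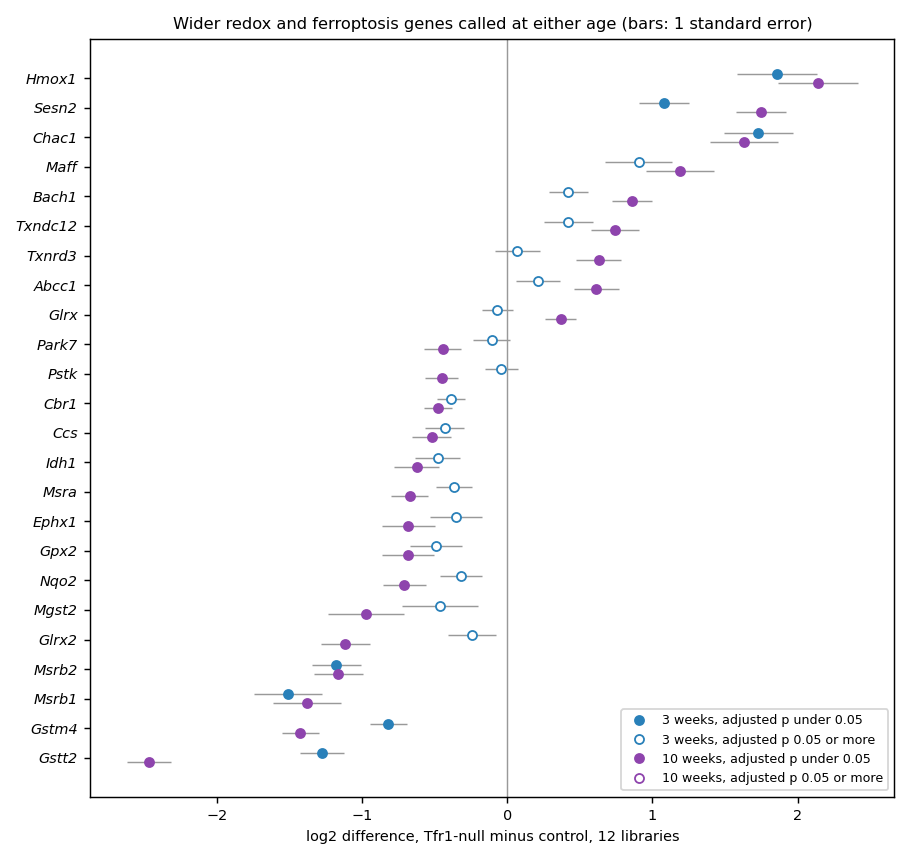
Difference in log2 signal, Tfr1-null minus control (horizontal axis), in the 12 libraries for the wider redox and ferroptosis genes called at either age. Blue is 3 weeks and purple 10 weeks, filled points have an adjusted p under 0.05 and bars are 1 standard error; Hmox1 lies at 1.86 and 2.14 and Gstt2 at -1.28 and -2.47.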

How the data were processed

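The authors deposited log2 signals from RMA (robust multi-array averaging), run in Partek 6.5 per the submitters' processing notes. Per the labels' protocols, 50 ng of RNA from each ribosome immunoprecipitate was amplified with the NuGEN Ovation V2 kit. No raw scans were used, no array dates were given in the sources used, and the number of arrays limits the precision. The values were used as deposited.

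Of 45101 probe sets, 34958 carried 1 gene symbol in the platform annotation, 932 several and 9211 none; 13 control probe sets with a symbol were left out. Each of the 18193 genes was read from its probe set with the highest mean. No measured member lay under the 25th percentile of its arrays in all libraries of a group, so no difference was treated as a bound. Gstm6 lay under it in 1 library, Tfr1-null 10 weeks 1, so the size of its difference at 10 weeks may be limited by background signal.

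Differences were tested with limma 3.58.1 in R 4.3.3 (lmFit and eBayes), with 4 group means and a shared spread per gene, and Benjamini-Hochberg adjustment over all genes of a contrast. SE denotes a contrast's standard error. The residual degrees of freedom were 10 with the 14 libraries as labelled and 8 with the 12. Groups came from titles and genotypes. The fit to 12 libraries leaves out Tfr1-null 3 weeks 1 and control 10 weeks 1. These were chosen on Tfrc, with earlier results of these data known. The tests were also run on simulated data with known changes.

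The members and lists were chosen with earlier results of these data known. Text names the members called, Nfe2l2, Keap1, Nqo1, Gpx4, Gclc, Acsl4, Aifm2 and Prdx3 in every comparison, and up to 8 called genes of the wider list with the largest difference; others named were picked after their values were seen. Marker lists covered dopaminergic, GABAergic and glutamatergic neurons, astrocytes, microglia, oligodendrocytes, erythrocytes, cells of vessel walls, and ependymal or choroid plexus cells. In the 12 libraries at 10 weeks, 4 of 13 dopaminergic and 1 of 9 ependymal markers were called lower. Of the GABAergic and glutamatergic markers, 1 of 6 was called higher. At either age, 0 of 12 microglial, 11 oligodendrocyte, 11 vessel and 3 erythrocyte markers were called. Uncalled lists still shifted. At 3 weeks 11 vessel markers were negative and 0 positive (median -0.27, all genes 0.01). Ependymal markers were 8 negative and 1 positive then (median -0.26). At 10 weeks 9 microglial markers were positive and 3 negative (median 0.34, all genes -0.01). The part of these cells in the differences of the members was not tested. Alternatives were quantile normalization within each age, median centring, each age alone, a replicate block, array weights, the mean of probe sets, a filter on dim genes, and leaving out each library. Promoter windows came from RefSeq tables of GRCm38.p6.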

Additional observations from a re-analysis of the deposited data

Results flagged for a closer look

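In groups of 4 libraries, a library whose gap to the nearest other exceeded 0.829 of the range of its group was marked, which chance gives in about 1 in 20 groups; 9 of 72 groups were marked. Among the Tfr1-null libraries at 3 weeks, Txnrd1 read 11.07 in the library labelled Tfr1-null 3 weeks 1 against 10.83 to 10.85 in the other 3, and Sod3 read 5.38 there against 5.37 in each of the others. Gpx4 read 12.50 in Tfr1-null 3 weeks 3 against 12.36 to 12.38 in the others. Mt1 read 11.29 in Tfr1-null 3 weeks 4 against 11.45 to 11.46 in the others.

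Among the controls at 10 weeks, the library labelled control 10 weeks 1 stood apart for 3 members. It read 11.99 for Prdx4 against 10.15 to 10.32 in the other controls, 12.31 for Gstm5 against 12.93 to 13.01, and 11.65 for Mgst3 against 12.46 to 12.48. Txnrd1 read 12.92 in control 10 weeks 3 against 11.34 to 11.51 in the others, and Gsr read 10.67 in control 10 weeks 4 against 11.31 to 11.42. Gstm5 and Mgst3 are among the members called at 10 weeks in the 12 libraries, which leave this library out.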

How the results depend on the processing

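No member that was called turned its direction under any alternative run. Counts below are members called of 36. With the 14 libraries, the count at 10 weeks was 1 as reported, 2 with each array centred on its median and 2 with the filter on dim genes, both adding Srxn1, but 0 with each age fitted alone, 0 with the replicate block and 0 with array weights. Leaving out 1 library gave 0 to 9, the 9 without control 10 weeks 1. At 3 weeks it was 0 as reported and 5 with array weights (Nqo1, Gpx3, Gpx7, Gstm6 and Gstp1), where 589 genes were called in all against 0. With the 12 libraries, the count at 3 weeks was 3 as reported, 5 with each age alone, 0 with the replicate block and 7 with array weights, and 2 to 4 on leaving out a library, the 2 lacking Gpx7. At 10 weeks it was 11 as reported, 1 (Nqo1) with each age alone, 0 with the replicate block and 6 with array weights, and 6 to 11 on leaving out a library: 6 without Tfr1-null 10 weeks 1 and 7 without Tfr1-null 10 weeks 3 or Tfr1-null 3 weeks 4. All genes called in that comparison fell to 244 of 18193 with each age alone and 801 with array weights, against 2015. The age comparison in the 12 libraries was 0 as reported, 1 (Srxn1) with the mean of probe sets and 0 to 1 on leaving out a library, the 1 being Srxn1 without control 10 weeks 4. Libraries of the same number did not deviate together, with correlations of -0.078 to 0.088, so the numbers were not taken as pairs; the replicate block adds terms and so leaves fewer degrees of freedom. The cause of the other changes was not tested. In the fit to 12 libraries, Nqo1 at both ages and Gstp1 at 3 weeks kept their call in 18 of 19 alternatives. Srxn1, Prdx3, Gstm6, Mgst3 and Gstp1 at 10 weeks kept theirs in 17 of 19. With the 14 libraries as labelled, Prdx3 at 10 weeks was the only member called. It kept that call in 5 of 21 alternatives.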
